A study of Solanum lycopersicum with 17 samples.

Results

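Seed-linked transcripts of tomato fruit are described here, chosen from the measured values as those found mainly where the fruit kept its seeds. A probe set, the group of short probes that reads 1 transcript on an Affymetrix array, was a member when its mean in wild-type fruit with seeds exceeded each of the other 5 group means by at least 1 on the log2 scale. Its lowest array with seeds also had to lie above the highest array of all other groups. Probe sets of 15 genes were left out by the rule (AGAL, GolS-1, CHS2, DFR, THT1-3, SNF4, GLB2, gad2, SPE4, AAP3, EXPA10, CDKB2, TSW12, ltpg1 and LOC544276), and 11 probe sets of these genes met the same values. This left 122 members of the 10038 probe sets that are neither Affymetrix controls nor reporter genes, out of 10209 on the array. The platform annotation names the gene of 11 members, and the other 111 are given by their probe set number only. Of the 122, 20 share a cluster number in their probe set name with another member, and 111 cluster numbers are distinct, so the members are not all separate transcripts.

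Total RNA of tomato (Solanum lycopersicum) fruit was hybridized to 17 arrays, each with a pool of 8 fruits and, per the series' design text, 1 plant to an array. Wild-type fruit with its seeds had 3 arrays (control with seeds), and wild-type fruit whose seeds had been taken out by hand had 3 (control no seeds). Transgenic lines, with fruit that forms without fertilization, carried iaaM or rolB behind either the INO or the DefH9 promoter. DefH9-RolB had 2 arrays and each of the other 3 lines (INO-IaaM, INO-RolB, DefH9-IaaM) had 3. iaaM is a bacterial gene of auxin synthesis and rolB, also bacterial, changes how cells respond to auxin. The INO promoter comes from INNER NO OUTER, an Arabidopsis gene of the outer ovule integument, and the DefH9 promoter is active in placenta and ovules, so both place the transgene in the tissue from which seeds form. The 5 groups other than the control with seeds are called seedless below, for short. Of their labels, only that of the control no seeds says so. The labels used here do not say whether any seeds or seed parts were in a given pool, and give neither the age of the fruit nor how many independent transformants stand for a line.

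A seed holds an embryo, the endosperm that feeds it and a coat derived from the integuments of the ovule. During filling, seeds make storage proteins, oils and oligosaccharides in very large amounts, and late in development they make proteins that protect cells during drying. Many of these transcripts, though not all, are scarce or absent in the flesh of the fruit. Galactinol synthase (GolS-1), for instance, makes the galactinol from which raffinose sugars are built, and alpha-galactosidase (AGAL) breaks such sugars down.

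Values are log2 RMA values, in which 1 unit is a doubling of signal. Array medians lay between 8.38 and 8.44, and the arrays of a group correlated with each other at 0.986 to 0.995. Of 10 fruit markers, several were high in every group: the group means of the fruit-specific gene 2A11 lay between 14.15 and 14.26 and those of the ripening gene E8 between 13.63 and 13.82. The proline-rich protein gene TPRP-F1 was not, with means of 3.77 with seeds and 4.47 in hand-deseeded fruit, both at the level of silent probe sets, and 6.01 to 7.12 in the lines. The means of the MADS-box genes MADS1 and TDR4 were 8.59 and 12.45 with seeds, against 9.31 to 9.65 and 12.77 to 12.94 in the other groups. Of 6 seed markers, AGAL, GolS-1 and LOC544276 met the values of the rule, while TAS14, LE16 and MAN2 did not. As a guide to the level of a transcript that is not there, 61 reporter probe sets spanned 2.45 to 5.49, called the silent range below. They are the reporters with no line array more than 1 log2 unit above every control array. Whether they carried no signal at all was not checked, so the upper limit is a rough one.

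The members were not alike in level. Their mean with seeds ran from 4.22 to 13.56, with a median of 7.57, against 8.41 for all 10101 probe sets tested. With seeds, 101 members lay above the silent range and 21 within it. Of the 101, 40 had all 5 seedless group means within the silent range, 43 had all 5 above it, and 18 had 1 to 4 above it. Fewer cells of a type and less RNA per cell cannot be told apart in whole fruit, here and in all values that follow. The gap between the mean with seeds and the highest other group mean, which the rule used, had a median of 1.70 and a maximum of 5.89. It was at least 2 in 48 members and at least 4 in 13. Just inside the limit of 1 lay LesAffx.38304.1.S1_at with a gap of 1.017898 and Les.3166.1.S1_at with 1.044994. Just outside it lay Les.1097.1.A1_at with 0.999997 and LesAffx.70134.1.S1_at with 0.99785, both with arrays that did not overlap. A further 27 probe sets met the gap in means but not the condition on single arrays.

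**Figure D1:**
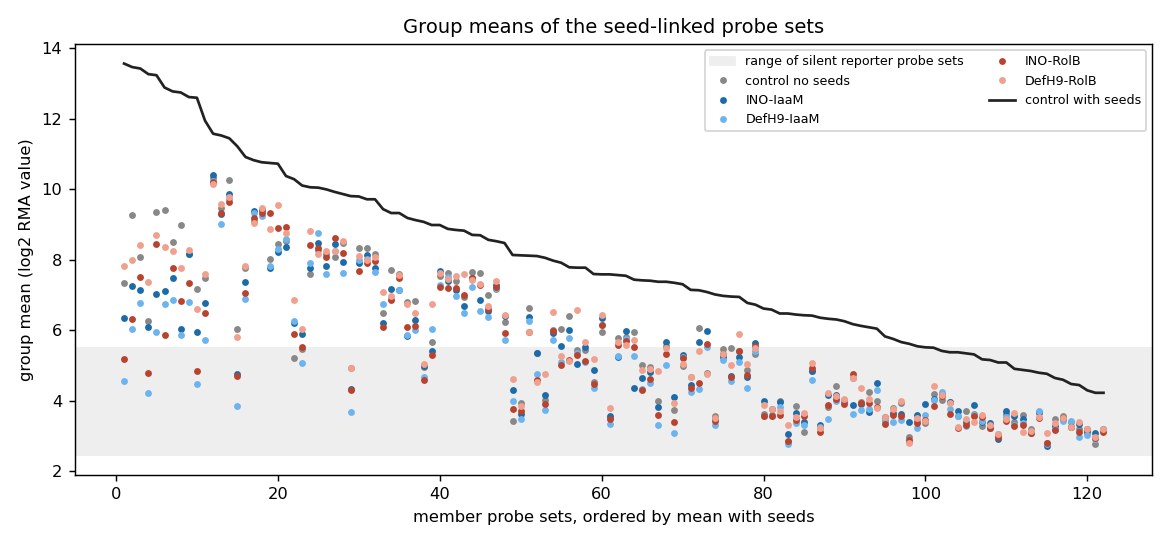
The mean log2 RMA value (vertical axis) of each of the 122 members, ordered by mean with seeds (horizontal axis), for fruit with seeds (line) and for the 5 seedless groups (points), with the silent range in grey. The members run from 13.56 to 4.22 with seeds, and the 10 with a mean of at least 12 lie far apart among the seedless groups.

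The seedless arrays were not equal to each other in these transcripts, and single arrays stood apart from their groups. The clearest case was the 10 members whose mean with seeds was at least 12, none of them with a gene name. This level was chosen after their values were seen. With seeds, the median of these 10 was 13.11, 12.60 and 13.20 on the 3 arrays. In INO-IaaM it was 4.02 on replicate 1, 10.91 on replicate 2 and 4.48 on replicate 3. In DefH9-RolB it was 5.53 on replicate 1 and 10.71 on replicate 2. Within each of these lines the 10 members thus lay near the silent range on some arrays and well above it, though below the medians of seeded fruit, on another.

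Hand-deseeded fruit had medians of 8.38, 6.75 and 10.30 for the same 10 members on replicates 1, 2 and 3. INO-RolB had 5.26, 4.86 and 9.01, and DefH9-IaaM had 7.46, 5.43 and 4.76. None of these medians reached the lowest one with seeds, but replicate 3 in hand-deseeded fruit, replicate 3 in INO-RolB and replicate 1 in DefH9-IaaM each lay well above the others of their group. On INO-IaaM replicate 2, 4 of the 10 members were within 2 log2 units of their mean with seeds, against 3 on DefH9-RolB replicate 2, 2 on control no seeds replicate 3, and 0 on the other seedless arrays.

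The member with the widest gap, LesAffx.22457.1.S1_at, read 13.59, 12.44 and 13.76 with seeds. It read 6.10, 2.93 and 9.78 in hand-deseeded fruit and 3.00, 12.22 and 3.04 in INO-IaaM. It read 6.25, 3.39 and 3.00 in DefH9-IaaM, 3.07, 3.02 and 8.22 in INO-RolB, and 3.18 and 11.56 in DefH9-RolB. Between the INO-IaaM arrays the difference was as wide as between a silent probe set and one of the brightest on the array.

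LesAffx.71476.1.S1_at, the second by gap, had the highest mean with seeds of all members, with arrays at 13.75, 13.04 and 13.90. Hand-deseeded fruit gave 7.22, 3.29 and 11.48, INO-IaaM gave 2.87, 13.04 and 3.14, and DefH9-IaaM gave 7.19, 3.24 and 3.21. INO-RolB gave 3.11, 2.99 and 9.42, and DefH9-RolB gave 3.08 and 12.53. Its INO-IaaM replicate 2 equalled the lowest array with seeds to 2 decimals, so the groups only just failed to overlap.

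Les.5728.1.S1_at, the third, read 12.68, 12.28 and 12.82 with seeds and 7.58, 4.95 and 8.96 in hand-deseeded fruit. It read 3.98, 9.98 and 3.86 in INO-IaaM, 5.56, 4.01 and 3.82 in DefH9-IaaM, 3.42, 3.90 and 7.20 in INO-RolB, and 3.70 and 9.52 in DefH9-RolB. Les.5728.1.A1_at, a member with the same cluster number, was dimmer: it read 7.39, 7.39 and 7.98 with seeds. It too was highest among seedless arrays on DefH9-RolB replicate 2, at 6.10, and INO-IaaM replicate 2, at 5.79.

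**Figure D2:**
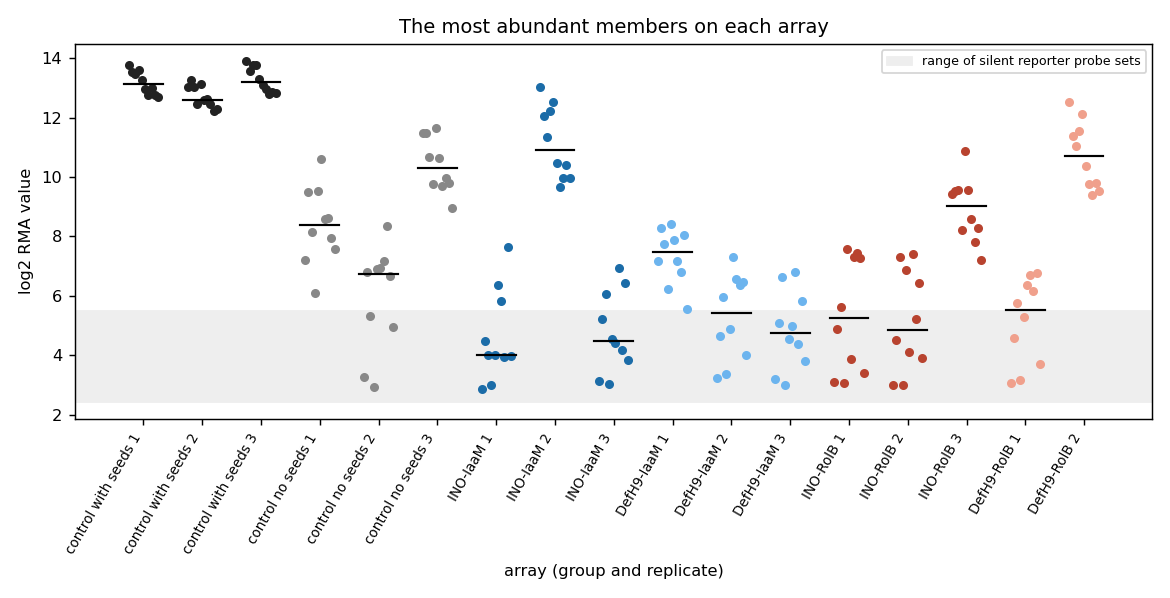
Log2 RMA values (vertical axis) of the 10 members with a mean with seeds of at least 12, as points, on each of the 17 arrays (horizontal axis), with a bar at the median and the silent range in grey. The medians are 10.91 on INO-IaaM replicate 2 and 10.71 on DefH9-RolB replicate 2, against 4.02 to 5.53 on the other arrays of these 2 lines.

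The order of the arrays was nearly the same for each of the 10. All 10 had control no seeds replicate 3, INO-IaaM replicate 2 and DefH9-RolB replicate 2 among their highest 5 of the 14 seedless arrays. INO-RolB replicate 3 was among them for 9, and control no seeds replicate 1 for 8. For 7 of the 10, the highest 5 were exactly these arrays, and INO-IaaM replicate 2 was the highest of all in 7. The deviations of the 10 from their group means, taken over the 14 seedless arrays, correlated between pairs of members with a median r of 0.95. The median r was 0.27 among the 15 members with a mean with seeds of 10 to 12 and 0.19 among the 28 with a mean of 8 to 10. Over the 7985 probe sets with at least 1 seedless group mean above the silent range, it was 0.0, with quartiles of -0.28 and 0.29. These correlations share the arrays and are descriptions only.

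Members of the next level kept part of this order. Les.2474.2.A1_at, chosen after its values were seen, read 10.19, 9.88 and 10.77 with seeds. Among seedless arrays it was highest on DefH9-RolB replicate 2 at 8.25 and INO-IaaM replicate 2 at 8.11, while it read 4.92, 5.11 and 5.61 in hand-deseeded fruit. In it the hand-deseeded arrays were thus low where the abundant members had been high. Les.4650.1.S1_at, also chosen after its values were seen, was of another kind, with 11.63, 11.24 and 11.85 with seeds and all 14 other arrays between 10.11 and 10.64.

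Over all 122 members, INO-IaaM replicate 2 was the highest seedless array for 38, control no seeds replicate 1 for 18, control no seeds replicate 3 for 17 and DefH9-RolB replicate 2 for 16. INO-IaaM replicate 2 lay at least 1 log2 unit above both other arrays of its group in 27 members, against 0.545% of all probe sets. DefH9-RolB replicate 2 did so against its single partner in 26 members, against 1.14% of all. INO-RolB replicate 3 did so in 14 members, against 0.574% of all, and control no seeds replicate 3 in 12, against 0.347% of all. DefH9-IaaM replicate 1 did so in 9 members, against 0.218% of all. Control no seeds replicate 2 was the low array of its group, with 19 members at least 1 log2 unit below both others. Neither this count nor that of the highest seedless array was made over all probe sets.

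**Figure D3:**
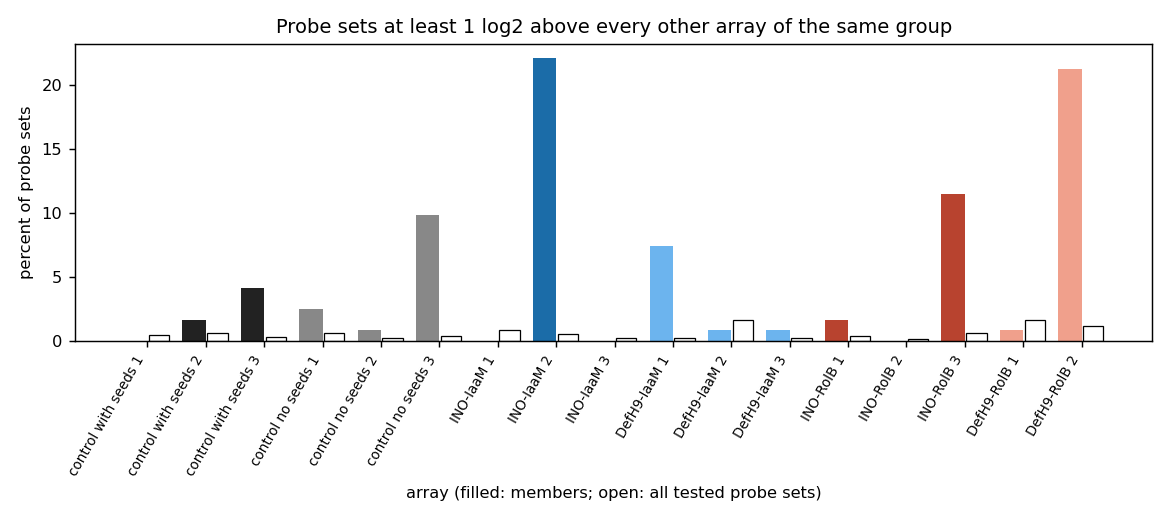
The share of probe sets, in percent (vertical axis), that lay at least 1 log2 unit above every other array of the same group, for each array (horizontal axis), with filled bars for the 122 members and open bars for all 10101 probe sets tested. The filled bars stand far above the open ones on INO-IaaM replicate 2 (27 members), DefH9-RolB replicate 2 (26), INO-RolB replicate 3 (14), control no seeds replicate 3 (12) and DefH9-IaaM replicate 1 (9).

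The 11 probe sets of genes that the rule leaves out followed these arrays in part. On INO-IaaM replicate 2, 10 of them lay above both other arrays of the line, but only AGAL and GolS-1 by 1 log2 unit or more. On DefH9-RolB replicate 2, 9 lay above replicate 1, and 5 by 1 log2 unit or more. AGAL read 11.80, 10.86 and 12.12 with seeds, 8.35 on INO-IaaM replicate 2 against 3.65 and 3.96 on its other arrays, and 7.47 on DefH9-RolB replicate 2 against 4.93. GolS-1 read 11.74, 11.01 and 11.92 with seeds, 7.99 on INO-IaaM replicate 2 against 3.70 and 4.32, and 7.11 on DefH9-RolB replicate 2 against 4.09. GLB2 and CHS2 ran the other way in DefH9-RolB, with 7.60 and 6.80 for GLB2 and 8.50 and 8.02 for CHS2 on replicates 1 and 2. THT1-3 lay between 3.28 and 4.81 on all seedless arrays, and TSW12 was highest among them on DefH9-IaaM replicates 2 and 3, at 8.94 and 9.69.

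RNA quality was read from the actin and gapdh probe sets at either end of the transcript. Their signal at the 5' end less that at the 3' end was -0.56 on INO-IaaM replicate 2 and -0.57 and -0.37 on the other 2 arrays of that line. It was -0.37 on both arrays of DefH9-RolB. In hand-deseeded fruit, replicate 3 had the lowest value, -0.92, against -0.57 and -0.59. On INO-RolB replicate 3 it was -0.45, against -0.44 and -0.41. On DefH9-IaaM replicate 1 it was -0.34, against -0.70 and -0.46. The 5 arrays thus did not share a shift of this measure, and its part in their values was not tested.

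Fruit with seeds also varied. Its replicate 3 was the highest of the 3 arrays in 98 members, where 30.9% of all probe sets had it highest, and replicate 2 was the lowest in 92, against 34.4% of all. The median SD of the 3 arrays was 0.41 over the members and 0.14 over all probe sets. Replicate 3 exceeded replicate 2 by a median of 0.64 over the members and by -0.01 over all. With replicate 2 left out, 177 probe sets met the rule, and with replicate 3 left out 109 did.

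The 11 members with a gene name had means with seeds between 5.37 and 10.05, where the median of all members was 7.57. They hold 4 transcription factors, a glutathione transferase, a stress-induced gene and 5 genes listed under a LOC number.

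**Figure D4:**
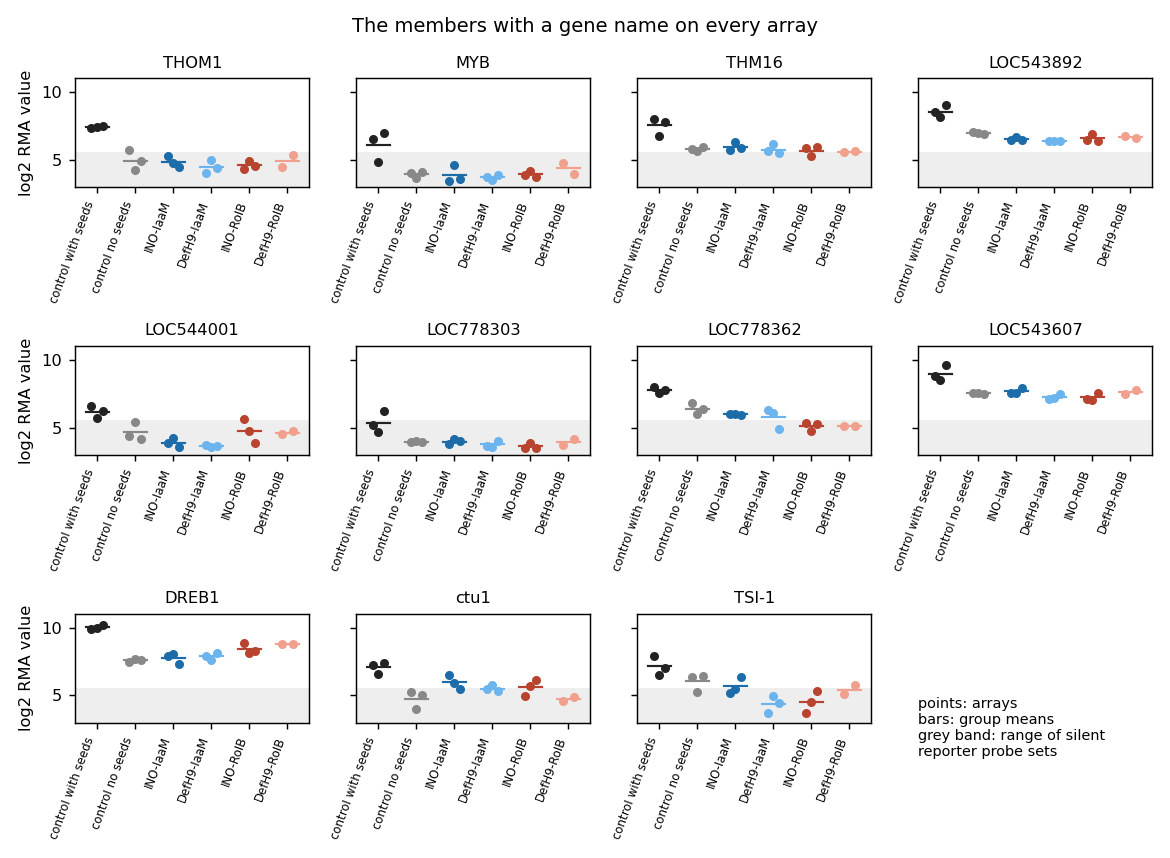
Log2 RMA values (vertical axes) of the 11 members with a gene name in the 6 groups (horizontal axes), with arrays as points, group means as bars and the silent range in grey. DREB1 lies between 7.31 and 8.15 in hand-deseeded fruit and the IaaM lines and between 8.11 and 8.84 in the RolB lines, below the 9.92 to 10.22 of fruit with seeds.

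THOM1, a homeobox transcription factor, had the widest gap of the named members, 2.46. It read 7.32, 7.39 and 7.49 with seeds, and 5.69, 4.24 and 4.90 in hand-deseeded fruit. The lines lay between 4.06 and 5.35, within the silent range. Its arrays with seeds were close together (7.40 ± 0.09, SD, n = 3), and INO-IaaM replicate 2, at 4.74, did not stand out from its group at 5.26 and 4.44. A second probe set of THOM1 lay within the silent range on average with seeds, at 3.33, so the pattern rests on 1 probe set, which by its suffix can also detect related transcripts.

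The MYB-type factors MYB (synonym THM18) and THM16 belong to a family that regulates, among other things, phenylpropanoid and seed coat genes in plants. MYB read 6.52, 4.84 and 6.99 with seeds and 3.43 to 4.78 on the seedless arrays, all within the silent range. Its lowest array with seeds exceeded the highest seedless one, DefH9-RolB replicate 1, only narrowly. THM16 read 8.04, 6.77 and 7.82 with seeds, 5.79, 5.68 and 5.92 in hand-deseeded fruit, and 5.27 to 6.30 in the lines. Both were lowest with seeds on replicate 2.

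ctu1, a glutathione transferase of the tau class (synonym GSTU43), which joins glutathione to reactive compounds, read 7.23, 6.59 and 7.42 with seeds. Hand-deseeded fruit gave 5.28, 3.97 and 5.05, and INO-IaaM gave 6.53, 5.91 and 5.50. DefH9-IaaM gave 5.45, 5.74 and 5.34, INO-RolB 4.99, 5.70 and 6.13, and DefH9-RolB 4.59 and 4.91. The first INO-IaaM array nearly reached the lowest with seeds. LOC543607 carries the synonym ctu2 and is counted with the glutathione transferases below on that name alone, since the tables used here give no function. It read 8.82, 8.52 and 9.59 with seeds and 7.05 to 7.89 elsewhere.

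TSI-1, a stress-induced gene of the PR-10 family of pathogenesis-related proteins, read 7.88, 6.48 and 7.04 with seeds and 6.39, 5.29 and 6.45 in hand-deseeded fruit. It read 5.21, 5.45 and 6.36 in INO-IaaM, 3.67, 4.96 and 4.41 in DefH9-IaaM, 3.71, 4.52 and 5.30 in INO-RolB, and 5.09 and 5.74 in DefH9-RolB. Seeded and hand-deseeded fruit were thus almost adjoining.

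Of the other genes listed under a LOC number, LOC543892 read 8.51, 8.13 and 9.04 with seeds, 6.93 to 7.05 in hand-deseeded fruit and 6.37 to 6.92 in the lines. LOC544001 read 6.63, 5.69 and 6.19 with seeds, and its highest seedless array, INO-RolB replicate 1, read 5.63. LOC778303 had a mean with seeds of 5.37, within the silent range, and 3.50 to 4.16 elsewhere. A second probe set of LOC543892 stayed within the silent range, at 3.62 with seeds.

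LOC778362 read 8.03, 7.55 and 7.75 with seeds and 6.84, 6.00 and 6.38 in hand-deseeded fruit. It read 6.04, 6.00 and 5.94 in INO-IaaM, 6.32, 6.11 and 4.88 in DefH9-IaaM, 5.34, 4.77 and 5.30 in INO-RolB and 5.14 and 5.11 in DefH9-RolB. The RolB arrays, all within the silent range, were all below the hand-deseeded ones, while the IaaM arrays overlapped them. By its suffix this probe set can also detect related transcripts. A second probe set of the gene lay within the silent range in every group, with 5.43, 3.41 and 5.02 with seeds and 2.84 to 3.92 elsewhere. There 1 array with seeds overlapped the seedless ones.

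DREB1 (synonym SlERF-H15) encodes an AP2/ERF factor of the DREB type, which in Arabidopsis binds the dehydration-responsive element of genes induced by drought and cold. It read 9.92, 10.00 and 10.22 with seeds and 7.45, 7.70 and 7.63 in hand-deseeded fruit. INO-IaaM gave 7.90, 8.08 and 7.31 and DefH9-IaaM gave 7.90, 7.63 and 8.15. INO-RolB gave 8.84, 8.11 and 8.29, and DefH9-RolB gave 8.80 and 8.81. By mean, hand-deseeded fruit was the lowest seedless group, then came both IaaM lines, INO-RolB next and DefH9-RolB highest, with the RolB arrays all above the hand-deseeded ones.

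Hand-deseeded fruit and the parthenocarpic lines are both without seeds by their description, and the rule bounds them alike from above, so they were compared by test. The mean of the 4 lines was set against hand-deseeded fruit with limma, over all 10101 probe sets, with Benjamini-Hochberg adjustment and a threshold of 0.05. Of the 122 members, 6 were lower in the lines and 1 was higher. Among all probe sets 8.43% were lower and 8.71% higher. The median difference over the members was -0.12, against 0.03 over all, with 77 members below 0 and 45 above. Of all probe sets, 56.2% were above 0. The share of members called was thus no larger than that of all probe sets in either direction. These shares are of probe sets of unlike level. At least 1 seedless group mean lay above the silent range in 61 of the 122 members, against 7985 of 10038 probe sets. The members with a mean with seeds of at least 12 all had lower means in the lines, but none passed. Les.253.1.S1_at, chosen after its values were seen, had means of 9.398 in hand-deseeded fruit and 7.01 in the lines (limma, adjusted p = 0.2598). Arrays of a group lay far apart in these members, so the test could miss wide differences there. The count of members called was 1 without control no seeds replicate 1, 3 without its replicate 3, and at most 10 with any 1 array left out. The RNA quality measure, 5' less 3' signal, was -0.70 to -0.34 in the lines and -0.92 to -0.57 in hand-deseeded fruit. With it as a covariate 1 member passed, none of these 7, and the median was 0.09.

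The 6 lower members were LOC778362, Les.5356.1.S1_at, LesAffx.8926.1.S1_at, Les.1183.1.A1_at, Les.305.2.S1_at and LesAffx.109.1.A1_at, the last 2 of which fall outside the naming rule. LesAffx.8926.1.S1_at read 8.04, 7.41 and 7.68 in hand-deseeded fruit and 6.38 to 7.39 on the 11 arrays of the lines. Its groups did not overlap, and it fell by 0.75 ± 0.17 (SE, adjusted p = 0.0107). It lost the call without control no seeds replicate 1 (adjusted p = 0.0767).

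Les.5356.1.S1_at read 6.20, 5.62 and 6.23 in hand-deseeded fruit and 4.73 to 5.95 in the lines, an overlap, with 9 of the 11 within the silent range. It fell by 0.80 ± 0.20 (SE, adjusted p = 0.0164), and lost the call without control no seeds replicate 1 (adjusted p = 0.0879) or replicate 3 (adjusted p = 0.0967). Les.1183.1.A1_at read 5.25, 5.51 and 5.68 in hand-deseeded fruit and 4.34 to 5.14 in the lines. It fell by 0.74 ± 0.13 (SE, adjusted p = 0.00334), and no single array left out ended this call. All its values in the lines and its hand-deseeded mean of 5.48 lay within the silent range, where a difference cannot be read as one of transcript level.

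LOC778362 fell by 0.90 ± 0.25 (SE, adjusted p = 0.0263) against hand-deseeded fruit, but not past the threshold without its replicate 1 (adjusted p = 0.159) or replicate 3 (adjusted p = 0.0900). With INO-IaaM replicate 2 and DefH9-RolB replicate 2 both left out, an alternative chosen after seeing the data, its adjusted p was 0.0597. The 2 members that fall outside the naming rule had smaller differences, of -0.51 for Les.305.2.S1_at (adjusted p = 0.0482) and -0.50 for LesAffx.109.1.A1_at (adjusted p = 0.0481). Both lost the call with 10 or more of the 17 arrays left out in turn. The other 2 members with the cluster number of Les.305.2.S1_at did not pass, with adjusted p-values of 0.3491 and 0.2013.

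DREB1 was the single member higher in the lines, by 0.63 ± 0.17 (SE, adjusted p = 0.0223). It was above hand-deseeded fruit by 1.22 ± 0.23 in DefH9-RolB (SE, adjusted p = 0.00918) and by 0.82 ± 0.21 in INO-RolB (SE, adjusted p = 0.0270), and passed in neither IaaM line. Between the transgenes, DREB1 was lower in the IaaM than in the RolB lines by -0.78 ± 0.16 (SE, adjusted p = 0.0192). All but 1 of the 6 IaaM arrays lay below the lowest of the 5 RolB arrays, 8.11, the exception being DefH9-IaaM replicate 3 at 8.15. This call ended without DefH9-RolB replicate 1 (adjusted p = 0.0804) and with INO-IaaM replicate 2 and DefH9-RolB replicate 2 both left out (adjusted p = 0.0511). The call in DefH9-RolB ended without either of its arrays (adjusted p = 0.0641 and 0.0510), and the call in INO-RolB without its replicate 1 (adjusted p = 0.0947) or control no seeds replicate 1 (adjusted p = 0.0905) or 3 (adjusted p = 0.0664). The call for the mean of the 4 lines ended without control no seeds replicate 1 (adjusted p = 0.108) or replicate 3 (adjusted p = 0.0752).

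An array measure moved with the same split. The difference between the hybridization spikes BioC and BioB, RNAs of known amount added to each sample, was 1.06 to 1.12 on the RolB arrays, 0.46 to 0.59 on the IaaM arrays and 0.51 to 0.71 on the control arrays. Its part cannot be told apart from that of the transgene, in DREB1 or in any other gene compared between RolB lines and other groups.

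**Figure D5:**
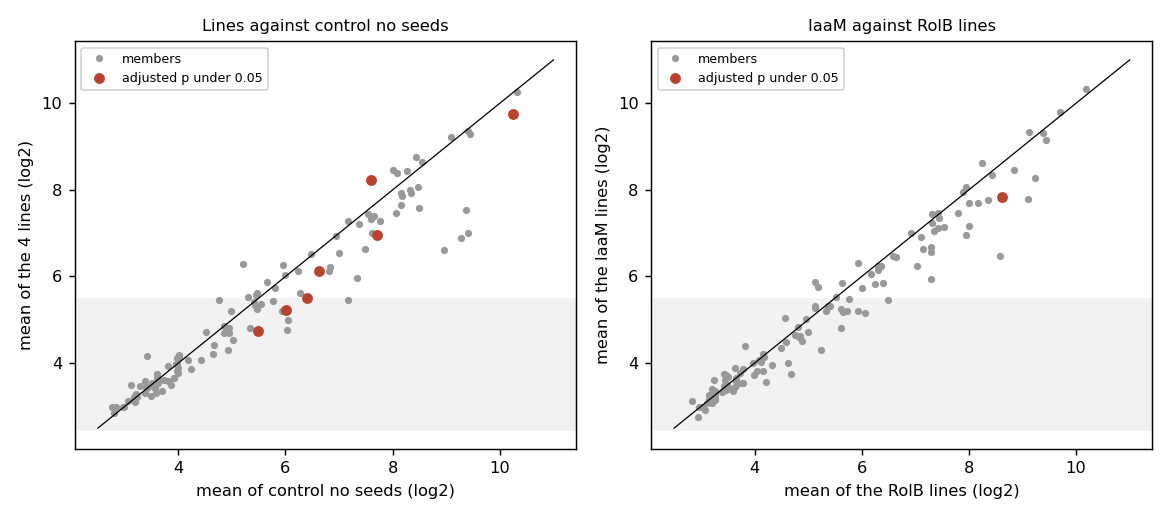
Means of the 122 members on the log2 scale, with the mean of hand-deseeded fruit against that of the 4 lines on the left and the RolB against the IaaM lines on the right, a line of equality, the silent range in grey, and members with an adjusted p under 0.05 as large points. On the left 7 members pass, of which DREB1 lies above the line, and on the right DREB1 alone passes.

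DREB1 was also the only member past the threshold between the IaaM and RolB lines, where 2.92% of all probe sets passed. The members' median difference, IaaM minus RolB, was -0.11, with 82 of 122 below 0, while 52.7% of all probe sets were above 0. LOC544001 was lower in IaaM by -0.93 (adjusted p = 0.108) and LOC778362 was higher by 0.75 (adjusted p = 0.101), neither past the threshold. The count was 2 without DefH9-IaaM replicate 2 or 3 or INO-RolB replicate 3.

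Each line was also set against hand-deseeded fruit, so these 4 comparisons share their control arrays. In INO-IaaM 1 member passed, Les.1183.1.A1_at (lower), against 5.74% of all probe sets in either direction. In DefH9-IaaM 4 passed, all lower, against 4.98% of all. These were Les.1183.1.A1_at, Les.5356.1.S1_at, LesAffx.8926.1.S1_at and Les.4920.1.S1_at, the last named after its values were seen. In INO-RolB 6 passed, 5 lower and DREB1 higher, against 10.1% of all, and LOC778362 fell by 1.27 ± 0.31 (SE, adjusted p = 0.0234). In DefH9-RolB 2 passed, DREB1 higher and LOC778362 lower by -1.28 ± 0.35 (SE, adjusted p = 0.0374), against 8.53% of all. LOC778362 lay within the silent range on all arrays of both RolB lines, so the size of its fall there is uncertain.

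The median difference over the members was -0.11 in INO-IaaM, -0.27 in DefH9-IaaM, -0.17 in INO-RolB and 0.04 in DefH9-RolB. DefH9-IaaM had the lowest mean of the 5 seedless groups in 61 members, and 97 members lay below hand-deseeded fruit there. Of all probe sets, 55.7% lay above hand-deseeded fruit in that line. DefH9-RolB had the highest mean in 47 members, and control no seeds in 43. These ranks were not counted over all probe sets. The counts of members called moved with single arrays. In INO-IaaM leaving out control no seeds replicate 3 gave 0, leaving out control no seeds replicate 2 gave 3, and leaving out array 2 or 3 of seeded fruit gave 2. In DefH9-IaaM it was 0 without the line's replicate 1 and 9 without its replicate 2. It was 1 there without the line's replicate 3 or control no seeds replicate 1 or 3, and 7 without control no seeds replicate 2. It was 2 without control with seeds replicate 1, INO-IaaM replicate 2 or INO-RolB replicate 3. Without control no seeds replicate 1 the count in INO-RolB was 1, without its replicate 3 it was 2, and without INO-RolB replicate 1 it was 2. In DefH9-RolB it was 0 without the line's replicate 2, 1 without its replicate 1 or INO-IaaM replicate 2, and 4 without DefH9-IaaM replicate 2.

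Among the named members that did not pass, TSI-1 differed from hand-deseeded fruit by -1.70 in DefH9-IaaM (adjusted p = 0.0636), -1.54 in INO-RolB (adjusted p = 0.0646), -0.37 in INO-IaaM (adjusted p = 0.696) and -0.63 in DefH9-RolB (adjusted p = 0.504). ctu1 differed by 1.21 ± 0.37 in INO-IaaM (SE, adjusted p = 0.0644) and by -0.02 in DefH9-RolB (adjusted p = 0.983). LOC543892 differed by -0.44 ± 0.15 over the 4 lines (SE, adjusted p = 0.0582). THOM1, MYB, THM16, LOC778303 and LOC543607 had differences of -0.24 to 0.03 over the 4 lines, with adjusted p-values of 0.595 to 0.963.

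Between the DefH9 and INO lines limma called 0 members and 0% of all probe sets after adjustment. At an unadjusted p under 0.05 there were 4 members and 378 probe sets in all. For the interaction of promoter and transgene, the DefH9 minus INO difference in RolB less that in IaaM, limma called 0 members and 0% of all, with 6 members and 386 probe sets at an unadjusted p under 0.05. The interaction was above 0 in 109 of the 122 members and in 49.6% of all probe sets. Its median was 0.41 over the members and 0 over all probe sets. INO-IaaM replicate 2 and DefH9-RolB replicate 2 both enter it with a positive sign. The median was 0.22 without the first, 0.23 without the second, and 0.06 without both.

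Relatives of the named members were counted in lists chosen after the values were seen, in the contrast of the 4 lines against hand-deseeded fruit, where 8.71% of all probe sets were higher and 8.43% lower. These lists are too short to set a share against those. Of 4 DREB and CBF factors measured, DREB1 was higher in the 4 lines than in hand-deseeded fruit and 2 were lower. CBF1, a cold-response factor of this type, fell by 1.99 ± 0.44 (SE, adjusted p = 0.00978), with means of 11.67 in hand-deseeded fruit and 9.13 to 10.06 in the lines, and 11.39 with seeds. DREB3 fell by 0.71 (adjusted p = 0.0139). Of 6 MYB factors 1 was lower, THM27 by -1.28 ± 0.27 (SE, adjusted p = 0.00864), and 0 were higher. Of 3 homeobox factors 1 was higher, VAHOX1 by 0.48 (adjusted p = 0.0347). Of 3 glutathione transferases limma called 0, with 1 at an unadjusted p under 0.05.

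Other genes of seed processes were counted in the same contrast, with the same shares of 8.71% higher and 8.43% lower over all probe sets. Of 5 genes of seed maturation, dehydration and abscisic acid 1 was higher, LE16, a lipid transfer protein gene, by 1.43 ± 0.45 (SE, adjusted p = 0.0448), and 0 were lower. Of 7 genes of reserve lipid and the glyoxylate cycle 2 were higher and 2 lower, of 23 of seed and endosperm cell walls 2 and 2, and of 19 of sucrose and starch 3 and 1. LE16 is counted again among the higher genes of the lipid list, and LOC544276 is among its lower ones. Of 9 cell division genes 4 were higher and 0 lower, among them PCNA, the sliding clamp of DNA polymerase, by 1.02 (adjusted p = 0.00127). Of 4 gibberellin genes limma called 0, with 0 at an unadjusted p under 0.05. None of these list genes is a member, though LOC544276 met the values of the rule and was left out by name.

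The dehydrin TAS14, a protective protein of drying tissue, is not a member. Its means were 10.46 with seeds, 8.70 in hand-deseeded fruit, 8.47 in INO-IaaM, 8.91 in DefH9-IaaM, 11.17 in INO-RolB and 11.44 in DefH9-RolB. It was lower in the IaaM than in the RolB lines by -2.62 ± 0.42 (SE, adjusted p = 0.00771). Of the 5 genes of seed maturation, dehydration and abscisic acid, TAS14 alone passed in this contrast, where 2.92% of all probe sets passed. The BioC and BioB spikes split the same lines, so their part cannot be told apart from that of the transgene. In the RolB lines the mean of TAS14 was above that of seeded fruit, a difference that was not tested.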

How the data were processed

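Total RNA was labelled with biotin and hybridized to Affymetrix tomato arrays. The values deposited by the authors are log2 values, made with RMA per the submitters' processing notes (version not given in the sources used here), 1 per probe set and array. The log base was read from their range. Scanner files were not used here. No alignment or genome build enters these values. Gene names came from the platform annotation (909 probe sets with 1 gene) and RefSeq assembly SLM_r2.1.

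Arrays were grouped by their titles. The 108 Affymetrix control probe sets were left out of the tests, and the 63 reporter probe sets could not be members. One mean per group was fitted to 10101 probe sets over the 17 arrays with lmFit and eBayes of limma 3.58.1, run in R 4.3.3 (11 residual and 2.56 prior degrees of freedom). Contrasts were adjusted by Benjamini-Hochberg over all of them, with a threshold of 0.05. Contrasts against the control with seeds chose the members and are given as descriptions, with no test. The fit was also run on simulated data with independent noise for each probe set. That run cannot show how the fit handles shifts of single arrays shared by many members. Levels are means with SD, differences have the standard error of the fit, and precision is limited by how few arrays a group has.

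The members and gene lists were chosen with earlier results of these data known, and the family lists after their values were seen. All members with a gene name are named. Of the others, the rule names the 3 with the widest gap, those nearest the limit of 1 log2 unit, and the 3 with the largest differences each way among those past the threshold. Any other is said to be chosen after its values were seen.

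Only the controls had all 3 same-numbered pairs of arrays correlated above 0.1 in their residuals (0.164 to 0.478), so no block was used. DefH9-RolB, with 2 arrays, could not meet this condition. Its pairs with INO-IaaM correlated at 0.334 for replicate 1 and 0.441 for replicate 2. Alternatives were other scalings, a filter, weights, fits of fewer groups, a covariate, a block, a stricter threshold and leaving out arrays. Analysis used Python 3.11.15 with pandas 2.3.3 and matplotlib 3.10.9. Sequences were not used here.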

Additional observations from a re-analysis of the deposited data

Results flagged for a closer look

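Reporter probe sets stand for genes used in transgenes and are outside the main measurement. RPTR-Les-A00196-1_s_at read 3.83 to 4.36 in the controls, while its mean over the lines exceeded that of the controls by 5.68 on the log2 scale, with 10 of 11 line arrays more than 1 unit above every control array. The exception was DefH9-RolB replicate 1, at 3.93. RPTR-Les-U57609-2_s_at read 3.75 to 4.09 in the controls and 7.14 to 11.31 in the lines, a difference of 5.88, with 11 of 11 line arrays above the controls. INO-RolB replicate 3, on which the abundant seed-linked transcripts were high, had the lowest value of its group for both, at 7.82 and 7.14. INO-IaaM replicate 2 had 10.25 and 10.81, replicate 1 of that line 10.73 and 10.74, and replicate 3 11.36 and 10.32. DefH9-RolB replicate 2, where these transcripts were also high, had 10.83 and 9.62, above the 3.93 and 9.48 of replicate 1. DefH9-IaaM replicate 1 had the lowest values of its group, at 9.80 and 9.74. A link between reporter and seed-linked signal was not tested.

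DREB1 stood out because the lines with the 2 transgenes differed in it by test, at -0.78 for IaaM minus RolB (limma, adjusted p = 0.0192). With any 1 array left out the difference was -0.86 to -0.67 and the adjusted p 0.0228 to 0.0804. It was lower in the IaaM lines with either promoter.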

How the results depend on the processing

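No called value changed sign. The rule gave 48 members at a gap of 2 and 74 at a gap of 1.5, and 109 to 177 with any 1 array left out. With RNA quality (5' less 3' signal) as a covariate, members called were 1 in the mean of the lines against hand-deseeded fruit, 1 in DefH9-IaaM, 0 in INO-RolB, 1 in DefH9-RolB and 3 between the transgenes. With the lowest 30 percent of probe sets left out, which 42 members passed, the counts were 0 in INO-IaaM, 2 in INO-RolB and 1 in DefH9-RolB. Array weights gave 2 in INO-IaaM, 8 in DefH9-IaaM and 2 between the transgenes, and a second quantile normalization gave 4 in DefH9-RolB. A fit of only the groups compared gave 0 in INO-IaaM, 0 in DefH9-IaaM and 0 between the transgenes. At an adjusted p under 0.01 the counts were 1 for the mean of the lines, 0 in INO-IaaM, 1 in DefH9-IaaM, 0 in INO-RolB, 1 in DefH9-RolB and 0 between the transgenes. With INO-IaaM replicate 2 and DefH9-RolB replicate 2 both left out, 138 probe sets met the rule (119 shared), 9 members passed for the mean of the lines (4 shared) and 0 between the transgenes, where DREB1 had an adjusted p of 0.0511. With any 1 array left out the counts were 1 to 10 for the mean of the lines, 0 to 3 in INO-IaaM, 0 to 9 in DefH9-IaaM, 1 to 7 in INO-RolB, 0 to 4 in DefH9-RolB, 0 to 2 between the transgenes, and 0 to 0 between promoters and for the interaction. A lone DefH9-RolB array was then assumed to vary like the other groups. The causes were not tested, apart from fewer arrays or probe sets where the alternative removes them. Of the settings tried for single members, 417 kept their side of the threshold and 146 lost it.

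Replicate numbers did not pair the arrays of the tested groups throughout. With the replicate block, 6 members passed for the mean of the lines, 1 in INO-IaaM, 3 in DefH9-IaaM, 6 in INO-RolB, 2 in DefH9-RolB and 1 between the transgenes. LesAffx.109.1.A1_at (adjusted p = 0.0590) and Les.305.2.S1_at (adjusted p = 0.0737) lost their call for the mean of the lines. The planned search for promoter motifs was not run, since no sequence table was at hand.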
